A study of Homo sapiens with 11 samples.

Results

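The 10 genes described here belong to the IRE1 and ATF6 arms of the unfolded protein response. They are XBP1, HSPA5, HSP90B1, HERPUD1, DNAJB9, SEL1L, HYOU1, PDIA4, SDF2L1 and EDEM1. They were taken by gene symbol from the 38557 genes of the count table, and each symbol matched. RNA had been sequenced from MOLM-13, a line of human acute myeloid leukemia cells that carry a KMT2A rearrangement. Cells had been kept for 72 h in the solvent DMSO (4 libraries), in 1 µM MI-503 (4 libraries), or in both 1 µM MI-503 and 100 nM PR-957 (3 libraries, replicates 1, 2 and 4), called the combination below. MI-503 inhibits Menin, a binding partner of KMT2A, and PR-957 inhibits PSMB8, a catalytic subunit of the immunoproteasome. The groups compared include none with PR-957 alone, so its part is seen only where MI-503 was present too, and a single cell line stands for the disease.

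When unfolded proteins build up in the endoplasmic reticulum (ER), the sensor IRE1 splices XBP1 mRNA, and the sensor ATF6 is cut to release a transcription factor. Both factors act on promoters of ER chaperones, of enzymes that form disulfide bonds and of the machinery that moves misfolded proteins out of the ER to the proteasome, a process named ER-associated degradation. In the blood lineages XBP1 is best known for its role in cells that secrete large amounts of protein, such as plasma cells. A count per gene does not tell the spliced from the unspliced XBP1 mRNA, so the values below are of total XBP1 RNA.

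Promoter sequences are shown first because ATF6 and XBP1 act through short elements named ER stress response elements. The first form, ERSE, is CCAAT, then 9 bases, then CCACG. The second form, ERSE-II, is ATTGG, 1 base, then CCACG. Both were searched on both strands of RefSeq promoter windows of 300 bases (build GRCh38.p14, from 250 bases before the gene start). Of 35116 such windows, 27 held ERSE (0.0769%) and 19 held ERSE-II (0.0541%). The 10 genes have 12 windows, since XBP1 and PDIA4 have more than 1 start. Among them, ERSE stood in 3 windows, those of XBP1, HSPA5 and HSP90B1, and ERSE-II in 3 others, those of HERPUD1, HYOU1 and SDF2L1. The stretches that hold them are printed 5′ to 3′ on the strand of the gene, with both ends of each element in capitals. An element on the opposite strand reads from CGTGG to ATTGG (ERSE) or to CCAAT (ERSE-II):
XBP1, chr22:28800593-28800631, minus strand: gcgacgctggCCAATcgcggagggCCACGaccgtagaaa
HSPA5, chr9:125241381-125241419, minus strand: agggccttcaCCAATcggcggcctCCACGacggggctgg
HSP90B1, chr12:103930206-103930349, plus strand: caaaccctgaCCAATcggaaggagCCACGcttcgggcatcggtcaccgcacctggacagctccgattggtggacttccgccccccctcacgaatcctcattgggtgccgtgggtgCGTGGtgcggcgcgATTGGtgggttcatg
HERPUD1, chr16:56932015-56932045, plus strand: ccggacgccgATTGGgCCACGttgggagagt
HYOU1, chr11:119057264-119057400, minus strand: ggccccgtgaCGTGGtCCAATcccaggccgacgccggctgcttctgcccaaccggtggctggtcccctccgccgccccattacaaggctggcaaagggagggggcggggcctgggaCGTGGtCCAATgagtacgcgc
SDF2L1, chr22:21642104-21642134, plus strand: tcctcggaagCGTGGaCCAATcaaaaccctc

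The XBP1 element begins 52 bases before the start, and that of HSPA5 66 bases before it. HSP90B1 holds ERSE at 194 bases before the start and, on the opposite strand, at 89 bases. HYOU1 holds ERSE-II on the opposite strand at 185 and at 79 bases, and the first of these overlaps TGACGTG, a core bound by XBP1 and ATF6, at 188 bases. TGACGTG was in 692 of all windows (1.97%) and in no other window of the 10 genes. CCACG, which is part of both elements, was in all 12 windows of the 10 genes and in 38.1% of all windows. Neither long element was found in the windows of DNAJB9, SEL1L, PDIA4 or EDEM1, which says only that these letters are not there. A match is a description of sequence and not a measured binding site.

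All 10 genes were among the 14683 that passed the filter on low counts and were tested. Library totals ran from 18.9 to 41.2 M counted fragments. Values are CPM, that is counts per 1 M counted fragments on TMM-scaled totals, and p-values are from edgeR's quasi-likelihood test, adjusted by Benjamini-Hochberg over the 14683 genes. The p-values measure the spread between these libraries, since the labels do not say that they came from separate cultures. In these bulk libraries, fewer cells of a type and less RNA per cell cannot be told apart. Combination replicate 1 stood apart. A chi-square of its counts, divided by the degrees of freedom, came to 19.4 and 33.3 against the other 2 libraries of its group, where other pairs of replicates lay between 1.71 and 5.97. For the 10 genes, values of the combination that lose or gain a call or move by over 1.5 times without it are therefore given both ways. Of 7 myeloid markers, PTPRC, CD33, SPI1, MPO, FLT3 and CD4 were present. CD86, the other one, was low, with means of 0.646 CPM in DMSO, 1.17 CPM in MI-503 and 1.55 CPM in the combination. T cell, erythroid and epithelial markers each summed to at most 0.452 CPM in any library.

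XBP1, the transcription factor of the IRE1 arm, was the gene of the set that moved most. Its RNA fell in MI-503 to 54.6% of its level in DMSO and in the combination to 32.5%. The gene lies at chr22:28794560-28800572 on the minus strand of hg38. XBP1 stood at 456, 472, 447 and 476 CPM in DMSO replicates 1 to 4. It stood at 233, 241, 271 and 266 CPM in MI-503 replicates 1 to 4. In combination replicates 1, 2 and 4 it stood at 144, 159 and 149 CPM. Each DMSO library was above each MI-503 library, and each MI-503 library above each combination library. The log2 fold change was −0.87 in MI-503 against DMSO (SE 0.051, adjusted p = 6.61e-10). It was −1.62 in the combination against DMSO (SE 0.058, adjusted p = 8.28e-13), and −1.57 without combination replicate 1. Between the combination and MI-503 it was −0.75 (SE 0.056, adjusted p = 1.97e-08), and −0.74 without combination replicate 1. By log2 fold change XBP1 ranked 134 from the lowest of the 14683 genes in the combination against DMSO, and 273 from the lowest in MI-503 against DMSO.

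XBP1 is abundant in plasma cells, so B and plasma cell markers were read beside it. Of 8 markers, 2 had a mean of at least 1 CPM in DMSO and in the combination and 3 in MI-503, and MS4A1 and JCHAIN, a B cell and a plasma cell marker, were at 0 in all libraries. The plasma cell markers SDC1 and TNFRSF17 reached at most 0.0949 and 0.223 CPM. PAX5, a transcription factor of the B lineage, made up most of the list. Its level was 45.5 to 48.6 CPM in DMSO, 30.0 to 30.8 CPM in MI-503 and 22.5 to 24.6 CPM in the combination. The summed list went from 49.0 to 51.6 CPM in DMSO, over 34.0 to 34.4 CPM in MI-503, to 24.5 to 27.9 CPM in the combination. It thus moved in the same order as XBP1, and its part in the XBP1 result was not tested.

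**Figure D1:**
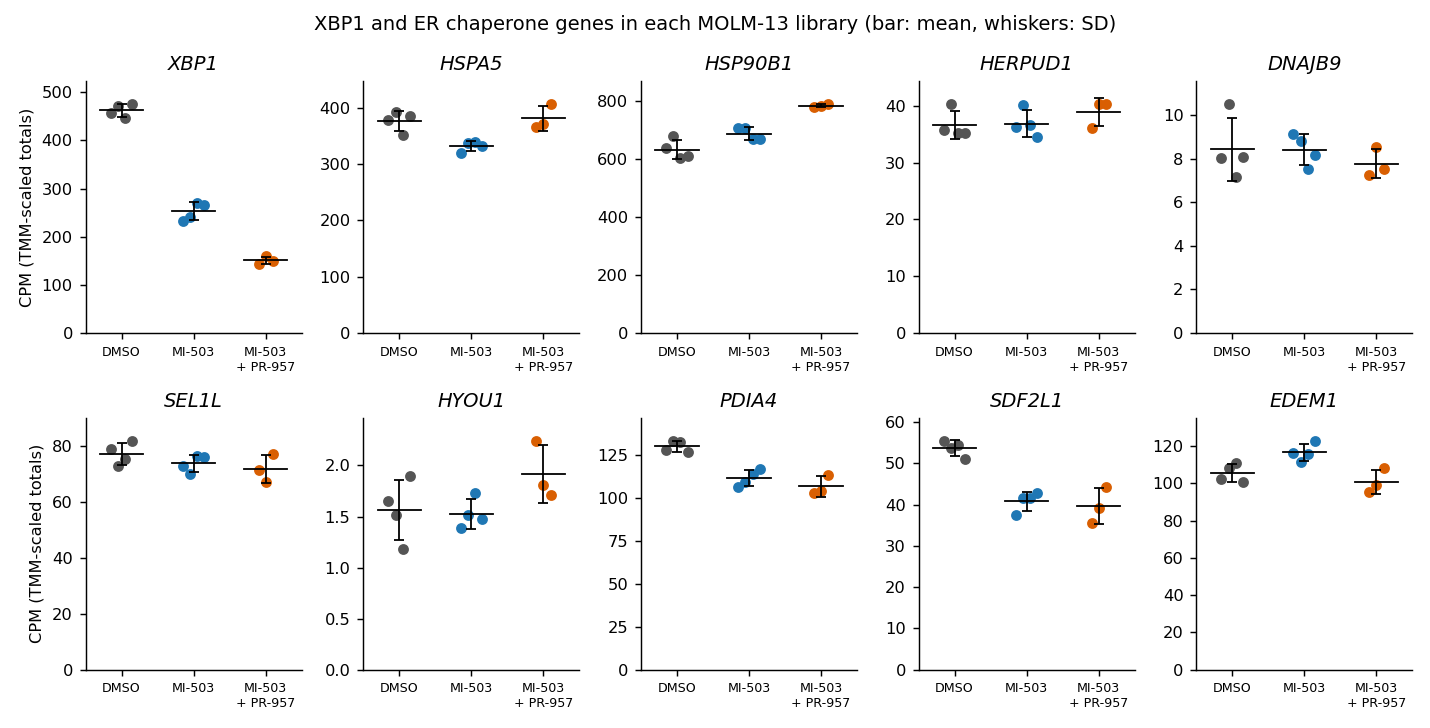
CPM (vertical axes, from 0) of each of the 10 genes in the DMSO, MI-503 and MI-503 + PR-957 libraries; points are libraries, bars are group means and whiskers are SD. XBP1 goes down in 2 steps from 463 to 253 and 151 CPM, HSP90B1 goes up from 632 to 783 CPM, and most other genes stay within a narrow range.

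The chaperone HSP90B1 did not follow XBP1 down, and HSPA5 was lower in MI-503 but not in the combination. HSPA5 encodes BiP, the HSP70 chaperone of the ER, which also holds the 3 stress sensors inactive, and lies at chr9:125234853-125241343 on the minus strand. Its levels were 379, 392, 352 and 385 CPM in DMSO and 319, 337, 339 and 332 CPM in MI-503. They were 366, 371 and 407 CPM in combination replicates 1, 2 and 4. The MI-503 libraries were all below those of the other groups, and the DMSO and combination libraries overlapped. HSPA5 fell in MI-503 against DMSO (log2 fold change −0.18, SE 0.046, adjusted p = 0.00272) and rose in the combination against MI-503 (0.20, SE 0.049, adjusted p = 0.00277). The latter was 0.20 without combination replicate 1, but 0.11 and not called without combination replicate 4 (adjusted p = 0.0709). In the combination against DMSO the value was 0.017 (95% interval −0.087 to 0.12, adjusted p = 0.779), and 0.065 without combination replicate 1. In 2.78% of the windows of 100 bases in HSPA5 exons the sequence recurs exactly elsewhere in the hg38 sequence searched, and for the other 9 genes this was 0.0%. That sequence holds no fix contigs, so the second copy of HYOU1 described below was not searched.

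HSP90B1 encodes GRP94, the HSP90 chaperone of the ER, at chr12:103930410-103947926 on the plus strand. In DMSO its level was 637, 677, 602 and 611 CPM, and in MI-503 it was 705, 707, 666 and 667 CPM. In the combination it was 778, 781 and 789 CPM. All 3 combination libraries were above all others, while DMSO replicate 2 lay within the range of MI-503. HSP90B1 rose in the combination, by 0.31 on the log2 scale against DMSO (SE 0.047, adjusted p = 1.79e-05) and by 0.19 against MI-503 (SE 0.047, adjusted p = 0.00311). Without combination replicate 1 these were 0.33 and 0.17, both called. The rise in MI-503 against DMSO was smaller (0.12, SE 0.044, adjusted p = 0.0291), and it was no longer called when any 1 of 5 libraries was left out: DMSO replicates 1, 3 or 4, or MI-503 replicates 1 or 2 (0.0965 to 0.12, adjusted p from 0.0512 to 0.0992). Of the HSP90B1 exon bases, 4.71% are shared with the microRNA gene MIR3652, and fragments there were not counted.

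Per kilobase of exon, XBP1 was the highest of the genes in DMSO and the third in the combination. In DMSO the order of levels was XBP1 (254 ± 7.39 CPM per kb, SD, n = 4), HSP90B1 (227 ± 12.2), HSPA5 (96.1 ± 4.47), SDF2L1 (65.1 ± 2.28) and PDIA4 (40.6 ± 0.998). EDEM1 (15.0 ± 0.673), HERPUD1 (12.8 ± 0.877), SEL1L (9.01 ± 0.467) and DNAJB9 (3.51 ± 0.600) followed in the same unit. Neighbours in this order did not overlap between libraries, and the margin was smallest between XBP1, whose lowest library was at 246 CPM per kb, and HSP90B1, whose highest was at 244, and between EDEM1 (lowest 14.3) and HERPUD1 (highest 14.1). In MI-503 the order was that of DMSO except that HSP90B1 (247 ± 8.20 CPM per kb, SD, n = 4) stood above XBP1 (139 ± 10.1). In the combination HSP90B1 came first (281 ± 1.97 CPM per kb, SD, n = 3), followed by HSPA5 (97.2 ± 5.64) and XBP1 (82.8 ± 4.32), and EDEM1 and HERPUD1 overlapped. HYOU1 was left out of this order because its exons are annotated on more than 1 contig.

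The ratio of XBP1 to a chaperone within a library does not depend on how libraries are scaled. Per exon length, the ratio of XBP1 to HSPA5 was 2.65 ± 0.0672 in the 4 DMSO libraries (SD), 1.64 ± 0.0952 in the 4 of MI-503 and 0.854 ± 0.0677 in the 3 of the combination. The ratio of XBP1 to HSP90B1 was 1.12 ± 0.0536 in DMSO, 0.565 ± 0.0594 in MI-503 and 0.294 ± 0.0154 in the combination. For both ratios no library of a group overlapped those of another group. The 3 genes with ERSE in their promoter windows thus moved apart, with XBP1 lower, HSP90B1 higher and HSPA5 close to its DMSO level in the combination.

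**Figure D2:**
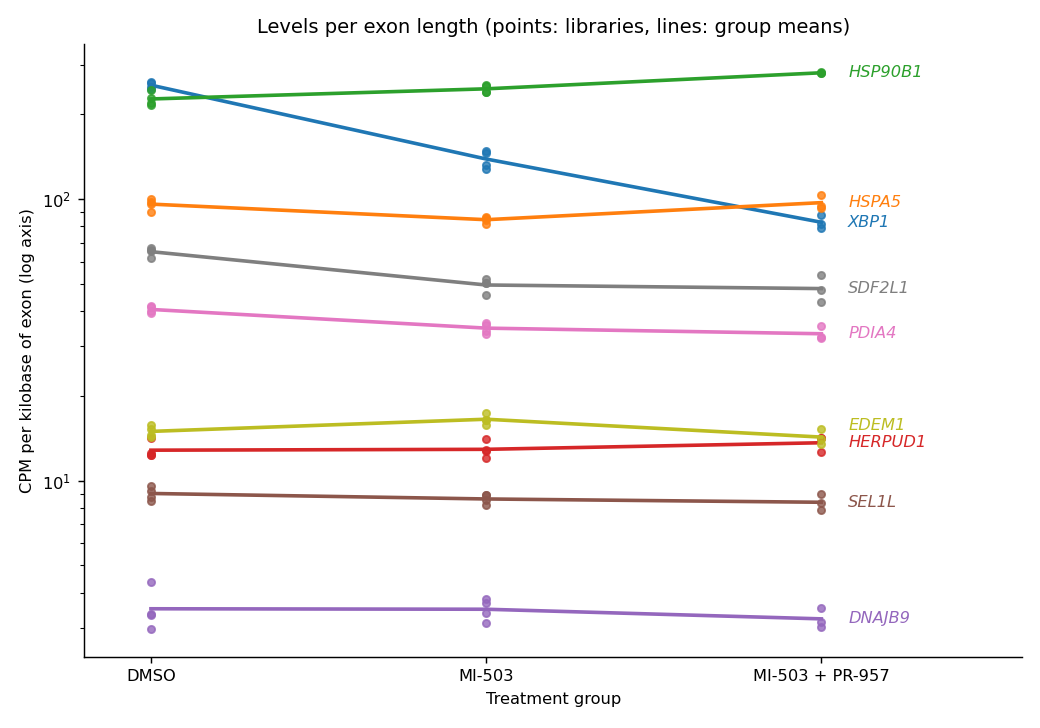
CPM per kilobase of exon (log axis) for 9 genes in each treatment group; points are libraries and lines join group means. The XBP1 line starts at 254 in DMSO and crosses those of HSP90B1 and HSPA5 to reach 82.8 in the combination, while the order of the genes from SDF2L1 down stays the same.

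SDF2L1 and PDIA4, factors that work with BiP in folding, fell in MI-503 and stayed low in the combination. SDF2L1 is part of the chaperone complex around BiP and lies at chr22:21642302-21644299 on the plus strand. Its level was 55.5, 53.9, 54.4 and 51.1 CPM in DMSO, 37.5, 41.6, 41.7 and 42.8 CPM in MI-503, and 35.6, 39.2 and 44.3 CPM in the combination. All DMSO libraries were above all others, and the MI-503 and combination libraries overlapped. The log2 fold change was −0.39 in MI-503 against DMSO (SE 0.062, adjusted p = 5.37e-05) and −0.44 in the combination against DMSO (SE 0.068, adjusted p = 2.02e-05), the latter −0.34 without combination replicate 1. Between the combination and MI-503 the value was −0.048 (95% interval −0.19 to 0.095, adjusted p = 0.593). It was 0.0075 without combination replicate 1 and −0.18 and called without combination replicate 4 (adjusted p = 0.0324).

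PDIA4 is a protein disulfide isomerase, an enzyme that forms and reshuffles disulfide bonds, at chr7:149003051-149028505 on the minus strand. Its level was 128, 133, 132 and 127 CPM in DMSO, 106, 109, 114 and 117 CPM in MI-503, and 103, 104 and 114 CPM in the combination. As for SDF2L1, only the DMSO libraries lay clear of the others. PDIA4 fell by 0.22 on the log2 scale in MI-503 (SE 0.044, adjusted p = 4.84e-04) and by 0.29 in the combination (SE 0.048, adjusted p = 5.07e-05), both against DMSO. The second value was −0.24 without combination replicate 1. Between the combination and MI-503 it was −0.0665 (95% interval −0.17 to 0.0345, adjusted p = 0.270), and −0.15 and called without combination replicate 4 (adjusted p = 0.0191).

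HYOU1 encodes GRP170, which exchanges the nucleotide of BiP. Its counts were only 25 to 95 per library, or 1.19 to 2.24 CPM. The annotation places its exons on chromosome 11 (119044187 to 119057205, minus strand) and again on a fix contig of hg38. The counting leaves out fragments aligned to more than 1 place, and the part of this in the low counts of HYOU1 was not tested. HYOU1 did not pass the test in any comparison, and the interval of its change in the combination against DMSO ran from −0.074 to 0.70 on the log2 scale around 0.31, which became 0.18 without combination replicate 1. Against MI-503 the value was 0.35, and 0.17 without that library. A change of the size seen for HSP90B1 was not detectable at this depth. DNAJB9 encodes ERdj4, a J-domain partner of BiP that represses IRE1 signaling (chr7:108569874-108574850, plus strand). It stood at 7.16 to 10.5 CPM in DMSO, 7.52 to 9.12 CPM in MI-503 and 7.25 to 8.53 CPM in the combination. The groups overlapped, and DNAJB9 was not called in any comparison, with a log2 fold change of −0.13 in the combination against DMSO (95% interval −0.38 to 0.13, adjusted p = 0.365). That value was −0.058 without combination replicate 1 and −0.0091 without DMSO replicate 2.

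Of EDEM1, HERPUD1 and SEL1L, which work in ER-associated degradation, EDEM1 was the one that passed the test. EDEM1 hands misfolded glycoproteins to degradation (chr3:5187707-5219963, plus strand). EDEM1 stood at 103, 108, 111 and 101 CPM in DMSO, at 116, 111, 116 and 123 CPM in MI-503, and at 95.3, 98.9 and 108 CPM in the combination. MI-503 libraries were above all others, and DMSO and combination libraries overlapped. EDEM1 rose in MI-503 against DMSO (log2 fold change 0.14, SE 0.049, adjusted p = 0.0200) and was lower in the combination than in MI-503 (−0.21, SE 0.052, adjusted p = 0.00318, and −0.20 without combination replicate 1). The first of these calls was lost without DMSO replicate 1 or 4 or without MI-503 replicate 4 (0.12 to 0.13, adjusted p from 0.0618 to 0.0715). Against DMSO the combination value was −0.067 (95% interval −0.18 to 0.044, adjusted p = 0.275), and −0.0068 without combination replicate 1. EDEM1 was thus highest in MI-503, the group in which HSPA5 was lowest.

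HERPUD1, a membrane protein that organizes the retrotranslocation complex (chr16:56932142-56944864, plus strand), lay between 34.5 and 40.3 CPM in all 11 libraries. Its log2 fold changes were 0.013, 0.0835 and 0.070 in MI-503 against DMSO, the combination against DMSO and the combination against MI-503, none called. Without combination replicate 1 the second was 0.16 and called (adjusted p = 0.0417). SEL1L, the adaptor of the ubiquitin ligase SYVN1 (chr14:81471547-81533861, minus strand), lay between 67.2 and 82.0 CPM and was not called in any comparison. Its log2 fold changes were −0.066, −0.10 and −0.037 in the same order. Without combination replicate 4, that in the combination against DMSO was −0.16 and called (adjusted p = 0.0204). The 95% interval of SEL1L in the combination against DMSO was −0.22 to 0.0135, so that a fall of more than 0.22 on the log2 scale lies outside it.

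**Figure D3:**
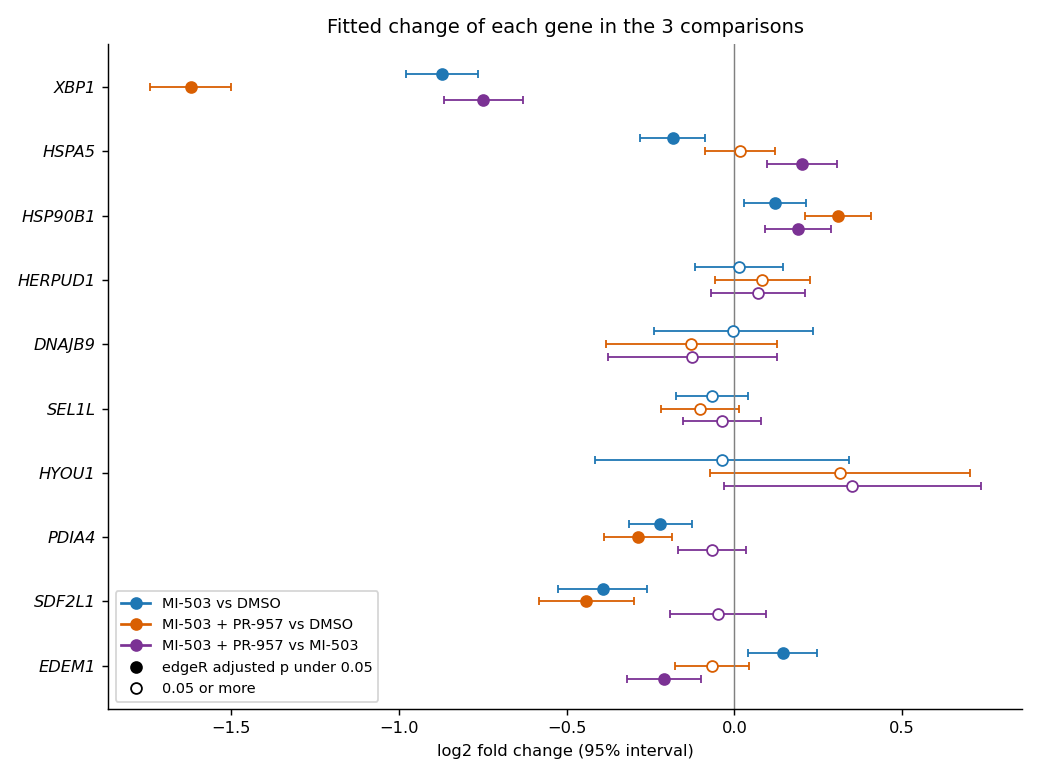
Fitted log2 fold changes (horizontal axis) with 95% intervals for the 10 genes in the 3 comparisons; filled points have an edgeR adjusted p under 0.05. XBP1 lies at −0.87, −1.62 and −0.75, and the intervals of all other genes lie above −0.6.

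In counts, 6 of the 10 genes were called in MI-503 against DMSO (2 higher and 4 lower), where 51.4% of all tested genes were called (22.0% higher and 29.3% lower). In the combination against DMSO, 4 were called (1 higher and 3 lower), against 64.5% of all genes (31.7% higher and 32.8% lower). Between the combination and MI-503, 4 were called (2 higher and 2 lower), against 47.4% of all genes (23.6% higher and 23.8% lower). Without combination replicate 1 the counts were 6, 5 and 4. The share called was thus not above that of all genes except by a small margin in MI-503 against DMSO. The groups did not overlap for 5, 4 and 4 of the 10 genes, where 50.3%, 60.5% and 47.6% of all tested genes did not overlap. The median log2 fold change of the 10 genes was −0.0515, −0.085 and −0.042, beside −0.028, 0.013 and 0.0041 over all genes, and was −0.0072, −0.0325 and −0.0231 with combination replicate 1 left out. The comparisons share samples, so these counts are not independent of each other.

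The sensors upstream of these genes were read from a list of 10 genes for sensing and processing. All 10 were tested, and 6 were called in MI-503 against DMSO (3 higher and 3 lower), 7 in the combination against DMSO (5 higher and 2 lower) and 8 between the combination and MI-503 (6 higher and 2 lower). These are 60.0%, 70.0% and 80.0% of the list, beside 51.4%, 64.5% and 47.4% of all genes. Their median log2 fold changes were 0.036, 0.23 and 0.17. ERN1, which encodes IRE1 itself, moved opposite to XBP1. Its level was 11.8 to 13.2 CPM in DMSO, 18.4 to 19.8 CPM in MI-503 and 24.5, 30.6 and 32.4 CPM in combination replicates 1, 2 and 4. The 3 groups did not overlap, and ERN1 rose by 0.61 in MI-503 (SE 0.084, adjusted p = 1.21e-05) and by 1.20 in the combination (SE 0.086, adjusted p = 2.53e-09) on the log2 scale against DMSO. The rise from MI-503 to the combination was 0.59 (SE 0.083, adjusted p = 1.96e-05).

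ATF6 also rose, from 70.4 to 78.6 CPM in DMSO, over 79.9 to 85.1 CPM in MI-503, to 91.4 to 95.8 CPM in the combination. Its log2 fold changes were 0.13 (adjusted p = 0.0203), 0.31 (adjusted p = 1.64e-05) and 0.18 (adjusted p = 0.00393) in MI-503 against DMSO, the combination against DMSO and the combination against MI-503. MBTPS1, the protease that makes the first cut in ATF6, rose in the combination against MI-503 (0.34, adjusted p = 2.08e-05). MBTPS2, the other ATF6 protease of the list, fell in the same comparison (−0.38, adjusted p = 2.75e-04). TRAF2, an adaptor that binds active IRE1, fell in the combination against DMSO (−0.68, adjusted p = 2.84e-08), and CREB3L2, a factor processed like ATF6, rose in MI-503 against DMSO (0.56, adjusted p = 2.99e-07). EIF2AK3, which encodes the third sensor PERK, was at 10.9 ± 1.14 CPM in the 4 DMSO libraries (SD), 12.1 ± 0.508 CPM in the 4 of MI-503 and 10.8 ± 1.11 CPM in the 3 of the combination, and it was not called in any comparison. Without combination replicate 1 it was called higher in MI-503 against DMSO (0.20) and lower in the combination than in MI-503 (−0.29).

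Further folding factors of the ER split in both directions. Of 19 listed genes 18 were tested, and in MI-503 against DMSO 1 rose and 7 fell (median −0.097). In the combination against DMSO 4 rose and 6 fell (median −0.057), and against MI-503 6 rose and 5 fell (median −0.0033). The shares called, 44.4%, 55.6% and 61.1%, compare with 51.4%, 64.5% and 47.4% of all genes. With upper-quartile scaling the split turned to 3 higher and 3 lower in MI-503 and to 7 higher and 4 lower in the combination, both against DMSO. CALR, a lectin chaperone, fell in MI-503 against DMSO (−0.42, adjusted p = 2.81e-05) and was higher in the combination than in MI-503 (0.27, adjusted p = 0.00354). Like HSPA5, it was thus lowest in MI-503. DNAJC3, a J-domain partner of BiP, was lowest in MI-503 too, with −0.15 (adjusted p = 0.0102) and 0.37 (adjusted p = 1.18e-05), the first not called with upper-quartile scaling (−0.093). ERO1A, an oxidase that feeds disulfide bond formation, fell in both steps like XBP1, to −0.58 in the combination against DMSO (adjusted p = 4.45e-08). PDIA6, a disulfide isomerase that shares 32.1% of its exon bases with a neighbor, reached −0.52 (adjusted p = 5.83e-07).

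Of 17 further genes of ER-associated degradation 16 were tested. In MI-503 against DMSO 1 rose and 5 fell, in the combination against DMSO 5 rose and 6 fell, and against MI-503 6 rose and 4 fell, with medians of −0.030, −0.0035 and 0.075. The shares called were 37.5%, 68.8% and 62.5%, beside the same 51.4%, 64.5% and 47.4% of all genes. With upper-quartile scaling 3 rose and 5 fell, and 7 rose and 5 fell, in the comparisons with DMSO. SYVN1, the ubiquitin ligase that SEL1L serves, rose in the combination against MI-503 (0.42, adjusted p = 1.38e-05), while SEL1L was at −0.037. OS9, a lectin that works with SEL1L, rose by 0.30 in the same comparison (adjusted p = 2.28e-05). UBE2J1, the conjugating enzyme of this ligase, fell by 0.39 (adjusted p = 5.11e-06). EDEM3, a relative of EDEM1, was highest in MI-503 as EDEM1 was, with 0.31 in MI-503 against DMSO (adjusted p = 4.74e-05) and −0.16 in the combination against MI-503 (adjusted p = 0.0176). SELENOS, a membrane protein of the retrotranslocation complex, was lowest there, with −0.55 (adjusted p = 2.31e-05) and 0.34 (adjusted p = 0.00385).

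Among genes for entry into the ER, calls were mostly lower, more so in the combination. Of 17 translocation genes 0 rose and 10 fell in MI-503 against DMSO by edgeR, and 0 rose and 14 fell in the combination against DMSO, with medians of −0.14 and −0.26. Lower calls thus made up 58.8% and 82.4% of the list, beside 29.3% and 32.8% of all genes. The first count depends on the scaling and filter. It was 1 higher and 7 lower by upper-quartile factors and 1 higher and 4 lower under a filter of 5 CPM. Over all genes, 3356 of 14683 and 2988 of 10039 were lower in these settings. The 4 of 17 under the filter were thus not above the share of all genes. The second count became 2 higher and 12 lower under each, where 4161 of 14683 and 3657 of 10039 genes were lower. At an unadjusted p under 0.05, 1 and 0 genes were higher, and at an adjusted p under 0.05, DESeq2 and limma-voom each found 1 and 0 higher. Without combination replicate 1, 1 rose and 9 fell, and 1 rose and 13 fell, where 3990 and 4664 of all 14751 genes were lower. Between the combination and MI-503, 1 rose and 10 fell (median −0.19), where 23.8% of all genes were lower. SSR4, a subunit of the translocon-associated complex, fell to −0.50 in the combination against DMSO (adjusted p = 3.72e-08). SEC61G, a subunit of the channel, fell to −0.50 (adjusted p = 7.11e-06) and SRPRB, a receptor subunit that shares 54.9% of its exon bases with neighbors, to −0.54 (adjusted p = 7.51e-08). SEC61G and SRPRB were already at −0.44 and −0.53 in MI-503 against DMSO. Between the combination and MI-503 neither was called (−0.0515 and −0.0171). SSR1 fell in the combination against MI-503 (−0.32, adjusted p = 2.09e-05).

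Of 12 genes of the COPII coat, which carries folded proteins out of the ER, 1 rose and 8 fell in MI-503 against DMSO (median −0.24). In the combination against DMSO 1 rose and 5 fell (median −0.033), and against MI-503 6 rose and 2 fell (median 0.11). The shares called were 75.0%, 50.0% and 66.7%, beside 51.4%, 64.5% and 47.4% of all genes. Upper-quartile scaling gave 4 higher and 4 lower in the combination against DMSO. SEC24D, a cargo adaptor, rose in both steps to 0.58 against DMSO (adjusted p = 4.52e-08), and PREB, which loads the coat's GTPase, fell in both to −0.47 (adjusted p = 5.10e-08). SEC31A fell in MI-503 against DMSO (−0.26, adjusted p = 3.23e-05) and rose in the combination against MI-503 (0.32, adjusted p = 1.04e-05). SEC24A had −0.28 (adjusted p = 2.12e-04) and 0.38 (adjusted p = 1.94e-05) in these comparisons, and SEC24C −0.28 (adjusted p = 4.95e-06) and 0.092 (adjusted p = 0.0557), the latter called with upper-quartile scaling (0.0985, adjusted p = 0.0391).

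The PERK arm, which works through the factor ATF4, was set beside the other arms with a list of 6 genes. By edgeR 0 rose and 4 fell in MI-503 against DMSO (median −0.54), and 0 were higher at an unadjusted p under 0.05 or by DESeq2 or limma-voom. In the other comparisons, 2 rose and 4 fell in the combination against DMSO (median −0.48) and 3 rose and 2 fell in the combination against MI-503 (median 0.19). So 4, 6 and 5 of the 6 genes were called, where 51.4%, 64.5% and 47.4% of all genes were. DDIT3, which encodes the stress factor CHOP, was at 12.0 to 13.7 CPM in DMSO, 11.1 to 13.2 CPM in MI-503 and 24.1, 33.0 and 29.4 CPM in combination replicates 1, 2 and 4. The combination libraries were all above the others, and DDIT3 rose by 1.24 on the log2 scale against MI-503 (SE 0.097, adjusted p = 3.18e-08). PPP1R15A, which encodes the phosphatase subunit GADD34, rose by 1.17 in the same comparison (SE 0.068, adjusted p = 6.92e-10). Neither was called in MI-503 against DMSO, where DDIT3 was at −0.087 (95% interval −0.29 to 0.12) and PPP1R15A at 0.032 (95% interval −0.11 to 0.17).

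ATF4, TRIB3 and CHAC1 were lower than in DMSO in both MI-503 and the combination. Between the combination and MI-503, ATF4 was not called (−0.077, adjusted p = 0.409). ATF3, the remaining gene of the list, fell in MI-503 against DMSO (−0.82, adjusted p = 1.98e-05). It rose in the combination against MI-503 (0.46, adjusted p = 0.00646). ATF4, of whose exon bases 47.2% are shared with MIEF1, fell by 0.52 in MI-503 (adjusted p = 6.59e-06) and by 0.60 in the combination (adjusted p = 1.71e-06) on the log2 scale against DMSO. TRIB3, a pseudokinase induced by ATF4, fell to −0.81 (adjusted p = 3.05e-08) and CHAC1, a glutathione-degrading enzyme induced by ATF4, to −2.09 (adjusted p = 1.59e-08) in the combination against DMSO. CHAC1 was low, with 7.50 ± 1.57 CPM in DMSO (SD, n = 4) and 1.79 ± 0.283 CPM in the combination (n = 3).

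Over the 6 lists, 79 of 81 genes were tested, and 43, 54 and 53 were called in MI-503 against DMSO, the combination against DMSO and the combination against MI-503. These are 54.4%, 68.4% and 67.1% of those tested, beside the 51.4%, 64.5% and 47.4% given above for all genes. When combination replicate 1 was left out the counts were 49, 54 and 52, and in MI-503 against DMSO 13 genes were higher and 36 lower, where all libraries gave 6 and 37. Over all genes that comparison moved too, to 4141 higher and 3990 lower of 14751, from 3235 and 4307 of 14683. The split also moved with the scaling. Upper-quartile factors gave 12 higher and 30 lower in MI-503 against DMSO. In the combination against DMSO they gave 28 higher and 31 lower, where TMM gave 17 and 37. Over all 14683 genes they gave 3968 higher and 3356 lower, and 5370 and 4161, in the same order. Under the filter of 5 CPM the lists had 15 and 26, and 26 and 29, beside 3050 and 2988, and 3786 and 3657, of 10039 genes. Calls of genes named from the lists, beside EIF2AK3, also changed without combination replicate 1. In MI-503 against DMSO, OS9 and SSR1 were then called higher (0.11 and 0.14) and SSR4 was no longer called (−0.086). That library enters this comparison only through the filter, scaling and shared fit. SELENOS was no longer called in the combination against DMSO (−0.088), and ATF4 was called lower in the combination than in MI-503 (−0.22). ERN1 and DDIT3 kept their calls, at 1.34 and 1.29 in the combination against DMSO. The named pathway genes called both with and without this library moved by at most 0.14 on the log2 scale against DMSO (24 genes) and 0.10 against MI-503 (23 genes).

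**Figure D4:**
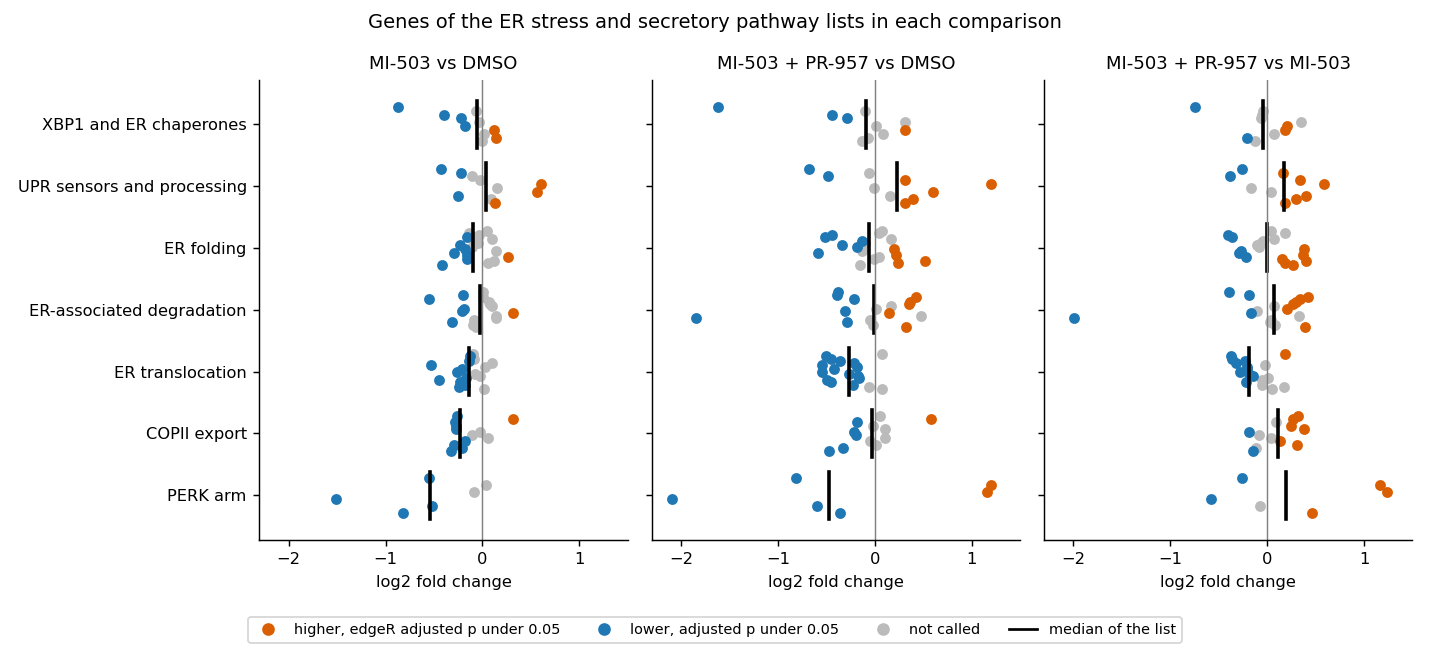
Log2 fold changes (horizontal axes) of the tested genes of 7 lists (rows) in the 3 comparisons; orange and blue points have an edgeR adjusted p under 0.05 and black bars are list medians. XBP1 is the leftmost point of the top row at −0.87, −1.62 and −0.75, the ER translocation genes lie mostly left of 0 (medians −0.14, −0.26 and −0.19), and DDIT3 and PPP1R15A stand at the right of the bottom row in the comparisons with the combination.

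The genes whose profiles over the 11 libraries were most like that of XBP1 were found by the root mean square (RMS) difference of log2 CPM, each gene centered on its own mean, among the 10040 other genes that averaged 5 CPM or more. They were LDHA (an RMS difference of 0.10), RTL8B (0.11), GPT2 (0.12), GATM (0.13) and PHGDH (0.13). LDHA encodes a subunit of lactate dehydrogenase, GPT2 and PHGDH encode enzymes of alanine and serine synthesis, and GATM one of creatine synthesis. LDHA went from 1015 CPM in DMSO to 501 CPM in MI-503 and 338 CPM in the combination. Of the other genes of the set, SDF2L1 was the nearest to XBP1, at rank 1811 with 0.47. For HSPA5 the nearest profiles were those of GOSR1 (0.040), COPB2 (0.042), SLC7A6OS (0.043), TRAPPC8 (0.045) and AP3M1 (0.047), of which GOSR1, COPB2, TRAPPC8 and AP3M1 encode proteins of vesicle traffic. HERPUD1 was the nearest of the set to HSPA5, at rank 1054 with 0.11. HSPA5 varied little over the libraries (SD of log2 CPM 0.11), where XBP1 had 0.68, so a small RMS difference is easily reached. These likenesses are descriptions, since the points share libraries and treatments, and no test was made.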

How the data were processed

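RNA had been sequenced as read pairs from 11 MOLM-13 libraries. The authors trimmed reads (Trimmomatic 0.39), aligned them to hg38 (STAR 2.7.10a) and counted fragments in exons of the RefSeq annotation without regard to strand (featureCounts 2.0.1), per the submitters' processing notes and the file headers. The deposited values are raw counts per gene, not normalized. Per the file headers no option was set that counts fragments aligned to several places or overlapping several genes, which the tool then leaves out. This can lower counts of genes with shared exons or copies on other contigs. Per the file headers the alignments counted were filtered ones. The filter itself is not described there. Tables of DESeq2 log2 fold changes and p-values that the authors deposited for MI-503 and for the combination, each against DMSO, were not used.

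Analysis used edgeR 4.0.16 in R 4.3.3, and Python 3.11.15. Groups followed the labels. The main fit did not pair libraries, and the labels do not say what a replicate number marks. Deviations of same-numbered MI-503 and combination libraries had correlations of 0.141, 0.149 and 0.211. Those of different-numbered libraries of these groups ran from −0.274 to 0.269, so the correlations do not settle a pairing by number. Same-numbered libraries of DMSO and either other group had correlations from −0.252 to 0.285. Different-numbered ones ran from −0.314 (DMSO replicate 2 with MI-503 replicate 4) to 0.317 (DMSO replicate 2 with MI-503 replicate 1). Whether libraries share a source of variation other than the replicate number was not tested. Of 38557 genes, 14683 passed filterByExpr (minimum count 10). All 11 libraries entered 1 model with TMM factors (0.956 to 1.056), 8 residual degrees of freedom and a biological coefficient of variation of 6.14%. The quasi-likelihood test was two-sided, p-values were adjusted by Benjamini-Hochberg over the 14683 genes, and adjusted values under 0.05 count as called. CPM are relative to TMM-scaled totals. Each SE was derived from the log2 fold change and the F value of its test, and 95% intervals were built from the SE. On simulated counts over 14683 genes for MI-503 against DMSO, the test called 100% of genes changed 2-fold at 5 CPM or more. At that level it called 76% of those changed 1.25-fold. For the combination against DMSO these shares were 100% and 54.5%, and for the combination against MI-503 100% and 65.2%. With genes under 5 CPM included, they were 81.8% and 56.7%, 81.8% and 44.8%, and 84.8% and 44.8% in the same order. The simulation changed only 66 or 67 genes at each fold, a far smaller part than was called in the data. The shares therefore describe that setting only.

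The 10 genes, 6 pathway lists, marker lists and tests were chosen with earlier results of these data known. Named beside the 10 genes were the 2 genes of each pathway list with the smallest adjusted p in each comparison, with ERN1, ATF6, EIF2AK3, ATF4 and DDIT3, and the 5 nearest profiles of XBP1 and HSPA5. Named also are MBTPS2 and ATF3, marker genes, and neighbors that share exons. MBTPS2 and ATF3 are not counted among the named pathway genes. Alternatives were other scaling factors (RLE, upper-quartile), filters, DESeq2 1.42.0, limma-voom (limma 3.58.1), fits of the compared groups alone, an adjusted p under 0.01, a replicate block and leaving out each library. Planned ends of the member proteins were not analysed here.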

Additional observations from a re-analysis of the deposited data

Results flagged for a closer look

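HERPUD1 in DMSO replicate 2 stood at 40.3 CPM, while the other 3 DMSO libraries lay between 35.2 and 35.8 CPM, a gap of 0.887 of the group's range, where 0.829 is the 95% limit for 4 samples. It was the only one of 78 gene and group sets screened that passed this limit (the 10 genes and 29 named pathway genes, in DMSO and in MI-503), and chance alone passes about 1 in 20.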

How the results depend on the processing

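The counts of called genes among the 10 stayed between 4 and 6 in MI-503 against DMSO, 4 and 5 in the combination against DMSO and 4 and 5 between the combination and MI-503 over all alternatives, and those of the 81 pathway genes between 35 and 52, 47 and 59, and 42 and 54. XBP1 kept its direction and call in every alternative (−0.90 to −0.80, −1.66 to −1.55 and −0.83 to −0.71), as did PDIA4 and SDF2L1 against DMSO. Directions turned only for values that were not called. Leaving out 1 library moved HERPUD1 from −0.0314 to 0.0622, DNAJB9 from −0.0722 to 0.12 and HYOU1 from −0.14 to 0.0588 in MI-503 against DMSO, HSPA5 from −0.0329 to 0.065 in the combination against DMSO, and SDF2L1 from −0.18 to 0.0075 between the combination and MI-503. In MI-503 against DMSO, DNAJB9 was 0.0237 with RLE factors, 0.0587 with upper-quartile factors, 0.0163 with no filter, 0.0664 with the stricter filter of 5 CPM, 0.0233 with DESeq2, 0.0106 with limma-voom and 0.046 with the compared groups alone. There HYOU1 was 0.0256 with upper-quartile factors and 0.0101 with the compared groups alone, and SEL1L was 0.0038 with the stricter filter. EDEM1 was 0.0006 with upper-quartile factors and 0.0037 with the stricter filter in the combination against DMSO. The cause was not tested. HYOU1 has no value under the stricter filter, which it did not pass.

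Upper-quartile factors moved the share of higher genes among all calls in MI-503 against DMSO from 42.9% to 54.2%, and the median of all genes from −0.028 to 0.034. With the replicate number as a block, 6, 4 and 4 of the 10 genes and 43, 55 and 52 of the pathway genes were called, and no call among the 10 changed. Under the block SELENOS was no longer called (−0.21, adjusted p = 0.0538) and CALR was called (−0.15, adjusted p = 0.0491) in the combination against DMSO, and no other named call changed. Depth limits HYOU1 (25 to 95 counts) and DNAJB9 (151 to 307 counts) most.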
